A study of Drosophila melanogaster with 5 samples.

Results

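The genes of the proteasome and their testis paralogues were examined in developing flight muscle. They were taken as every gene whose symbol in the deposited data names a proteasome subunit, that is Prosalpha or Prosbeta followed by a number, or Rpt or Rpn followed by a number. The rule found 47 of the 17494 genes with a count table entry, of which 32 are main copies and 15 are paralogues, whose symbols end in R or T with or without a further digit. RNA was sequenced from indirect flight muscles, dissected by hand from pupae of Drosophila melanogaster staged at 25 °C to 48 h APF (after puparium formation), to ask how transcription changes when the transcription factor M1BP is depleted in muscle. The M1BP RNAi group (n = 2, replicates 2 and 3) carried UAS-M1BP RNAi line #1, the weaker of the lines used in the study, under Mef2-GAL4, a driver active in muscle and its precursors, and the WT group (n = 3, replicates 1, 2 and 3) carried the driver alone. Both groups therefore share Mef2-GAL4, and each library was made from the pooled muscles of 6 to 8 pupae. The labels did not give the sex of the pupae.

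The proteasome degrades proteins that carry a ubiquitin chain. Its core particle is a stack of rings built from alpha and beta subunits: the outer alpha rings gate the entrance, and the inner beta rings hold the protease sites. The regulatory particle caps the core, with a ring of Rpt ATPases that unfolds the substrate and Rpn subunits that bind and remove ubiquitin, several of which form a lid. In Drosophila, several subunits have a second gene copy that is used mainly in the testis, where such copies form proteasomes of the male germline.

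Total counts lay between 41676901 and 57514444 per library, and the 47 genes took 0.493% and 0.456% of them in M1BP RNAi replicates 2 and 3, against 0.239%, 0.251% and 0.245% in WT replicates 1, 2 and 3. Values below are normalised counts, which are counts divided by the DESeq2 size factor of the library, and are given for M1BP RNAi replicates 2 and 3 and then for WT replicates 1, 2 and 3. M1BP itself had 409.8 and 455.6 in M1BP RNAi muscles, against 666.3, 672.6 and 641.9 in WT muscles, and fell by 0.61 on the log2 scale (SE 0.136, DESeq2 adjusted p = 1.04e-04). This call of M1BP was lost when any 1 library was left out (adjusted p between 0.0135 and 0.181). M1BP RNAi replicate 2 stood apart from the other libraries. Its distance to the WT libraries on transformed counts was 44.6 to 48.1, against 32.9 to 36.5 for M1BP RNAi replicate 3 and 23.2 to 27.7 among the WT libraries. It also held reads of testis genes, whose values are given with the paralogues. The male-specific RNA lncRNA:roX1 had 9618 and 5900 in M1BP RNAi muscles, against 14.4, 4994 and 1062 in WT muscles. It varied within WT, and both M1BP RNAi libraries lay above all WT libraries. The other listed male marker, lncRNA:roX2, had 737.1 and 572.4, against 0, 583.3 and 121.3 in WT. Neither was called changed, and whether the sexes in the pools differed between groups was not tested. The 10 flight muscle markers were detected in every library and none was called changed, beside 6.75% of all genes tested. All but TpnC4 (log2 fold change 0.22) had a negative log2 fold change. The lowest was that of Mlp60A (-0.60), whose DESeq2 adjusted p of 0.00107 just missed the call. For Mlp60A, up and wupA, both M1BP RNAi libraries lay below all WT libraries, beside 21.9% of all genes tested.

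Of the main copies, 21 of 32 rose in M1BP RNAi muscles, with genes of all 4 groups of subunits among them, and Prosalpha2 and Prosbeta6 fell. A gene was called at a DESeq2 adjusted p of at most 0.001, by the Benjamini-Hochberg method over all genes tested, together with a fold change of at least 1.5. By this rule 21 of the 32 main copies were called higher in M1BP RNAi, 2 were called lower and 9 were not called, while 6.75% of the 11282 genes tested were called in either direction: 426 of the 11282 genes tested (3.78%) were called higher and 336 (2.98%) were called lower. The median log2 fold change of the main copies was 0.75, and that of all genes tested was 0.02. Every M1BP RNAi library lay above every WT library for 29 of the 32 main copies, against 27.1% of all genes tested. Measured against the WT mean, the median log2 ratio of the 32 genes was 0.71 and 0.76 in the M1BP RNAi libraries, against -0.07, -0.05 and 0.11 in the WT libraries. The M1BP RNAi replicates lay close together: apart from Prosalpha1, the log2 ratio of replicate 2 over replicate 3 ran between -0.152 for Prosalpha5 and 0.129 for Rpn7. Without M1BP RNAi replicate 2, 17 of the 21 genes were still called higher, and without M1BP RNAi replicate 3, 18 were. With edgeR's quasi-likelihood test, none of the 32 main copies reached an adjusted p of 0.001, 31 had an unadjusted p under 0.05, and the adjusted p of the 21 genes lay between 0.00353 and 0.0175. At an edgeR adjusted p of at most 0.05 with the same fold minimum, all 21 were called higher, beside 4.73% of the genes edgeR tested, and 23 main copies were called in either direction, beside 8.27%. The labels do not say whether libraries came from separate crosses, so p-values measure the spread between these pools of pupae. In such bulk samples, more RNA of a gene per cell and more cells that use it cannot be told apart.

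**Figure D1:**
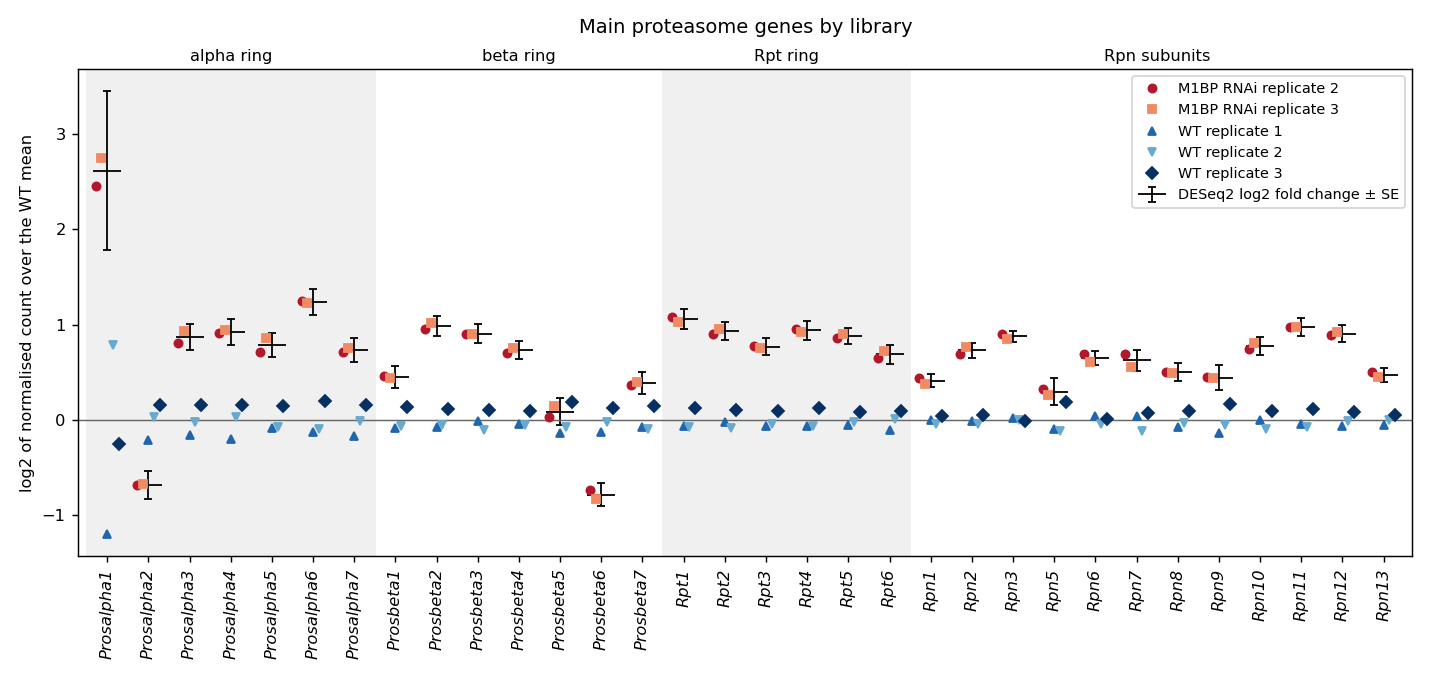
Log2 ratio of the normalised count of each main copy to its WT mean, with 1 point per library, M1BP RNAi left of WT, and the DESeq2 log2 fold change with its SE as a black dash and bars. In all 4 groups of subunits most M1BP RNAi points lie above 0, and Prosalpha2 and Prosbeta6 lie below it.

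In the alpha ring, 5 of 7 genes were called higher, 1 was called lower and 1 was not called, with a median log2 fold change of 0.87. These counts stand beside 3.78% of all genes tested called higher and 2.98% called lower. Among the called alpha genes, the largest change was that of Prosalpha6 (FBgn0250843, arm 2L, 10221351 to 10222546, dm6), a structural alpha subunit. Prosalpha6 had 11630 and 11490 in M1BP RNAi muscles, against 4498, 4599 and 5616 in WT muscles. This was 2.36-fold higher in M1BP RNAi (log2 fold change 1.24, SE 0.138, DESeq2 adjusted p = 2.53e-17), with both M1BP RNAi libraries above the highest WT library. Prosalpha4 had 7617 and 7784, against 3534, 4131 and 4507 in WT (log2 fold change 0.92, SE 0.139, adjusted p = 1.13e-09). Prosalpha3, which in yeast carries the tail that closes the gate of the ring, had 6532 and 7134, against 3343, 3682 and 4162 in WT (log2 fold change 0.87, SE 0.136). Prosalpha5 and Prosalpha7 were called higher as well, with log2 fold changes of 0.79 and 0.73. None of these called genes overlapped between groups, beside 27.1% of all genes tested with every M1BP RNAi library above every WT library.

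Prosalpha2 (FBgn0086134, arm 3R, 12431321 to 12432556) went the other way. It had 2034 and 2054 in M1BP RNAi muscles, against 2840, 3349 and 3647 in WT muscles, so both M1BP RNAi libraries lay below the lowest WT library. Prosalpha2 fell by 0.68 on the log2 scale (SE 0.148, 95% interval -0.972 to -0.392, DESeq2 adjusted p = 6.80e-05). Its call was lost without M1BP RNAi replicate 2 (adjusted p = 0.0450), without M1BP RNAi replicate 3 (0.0154) and without WT replicate 2 (0.00550), with a log2 fold change of -0.66 to -0.68 in these settings. Within the ring, the share of Prosalpha2 in the summed level per kilobase of exon was 5.48% and 5.33% in M1BP RNAi, against 14.3%, 15.4% and 14.8% in WT. That of Prosalpha6 was 27.0% and 25.6%, against 19.5%, 18.2% and 19.6% in WT. Leaving out Prosalpha1, the highest alpha gene exceeded the lowest 4.86 times in M1BP RNAi (Prosalpha6 over Prosalpha2), against 1.35 times in WT (Prosalpha7 over Prosalpha4).

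Prosalpha1 was counted far below its partners and its values are uncertain. It had 57 and 52 raw counts in M1BP RNAi libraries, against 3, 11 and 6 in WT libraries, while no other alpha main copy had fewer than 2092 counts in any library. The gene CG30382, which the supplied names table calls Prosalpha1R, starts 3110 bases away on the same strand of arm 2R and shares 3 exon blocks of identical length with it. CG30382 had 28 and 46 raw counts in M1BP RNAi, against 10, 11 and 5 in WT. Only uniquely aligned reads were kept, so reads shared by a pair of near-identical genes would be lost from both. By DESeq2 it did not pass (adjusted p = 0.0111, log2 fold change 2.62, SE 0.834), and without it the median of the main copies was 0.73.

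In the beta ring, 3 of 7 genes were called higher, 1 was called lower and 3 were not called, with a median log2 fold change of 0.45. Over all genes tested, 3.78% were called higher and 2.98% lower. Of the 3 subunits with a protease site, 1 was called, and whether their changes differ was not tested. Prosbeta2, which carries the trypsin-like site, had 7539 and 7845 in M1BP RNAi muscles, against 3697, 3744 and 4211 in WT muscles (log2 fold change 0.99, SE 0.101, DESeq2 adjusted p = 2.18e-20). Prosbeta1, with the caspase-like site, had 4637 and 4559, against 3166, 3220 and 3699 in WT. Its groups did not overlap and its adjusted p was 7.54e-04, but its log2 fold change of 0.45 (SE 0.113) was under the fold minimum. Prosbeta5, with the chymotrypsin-like site, had 5446 and 5897, against 4862, 5060 and 6098 in WT, and was the only main copy whose groups overlapped. Its log2 fold change was 0.09, with a 95% interval of -0.196 to 0.369 (adjusted p = 0.709).

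Among the structural beta subunits, Prosbeta3 had 5305 and 5282 in M1BP RNAi, against 2814, 2634 and 3040 in WT (log2 fold change 0.90, SE 0.101, DESeq2 adjusted p = 2.79e-17). Prosbeta4 had 4679 and 4841, against 2781, 2756 and 3065 in WT (log2 fold change 0.73, SE 0.0938, adjusted p = 3.62e-13). Both were called higher, with both M1BP RNAi libraries above all WT libraries, beside 27.1% of all genes tested. Prosbeta7, whose groups did not overlap, had 6382 and 6521, against 4692, 4632 and 5479 in WT, and missed both limits of the call (log2 fold change 0.39, SE 0.117, adjusted p = 0.00709). Prosbeta6 (FBgn0002284, arm 3L, 16609400 to 16610418) had 2303 and 2155, against 3532, 3797 and 4207 in WT. It fell by 0.79 on the log2 scale (SE 0.122, 95% interval -1.03 to -0.547, adjusted p = 3.57e-09), and both M1BP RNAi libraries lay below the lowest WT library. The adjusted p was just above 0.001 without either M1BP RNAi library (0.00108 without replicate 2 and 0.00127 without replicate 3), with log2 fold changes of -0.82 and -0.73. Per kilobase of exon, Prosbeta6 made up 6.64% and 6.09% of the ring in M1BP RNAi, against 14.6%, 15.5% and 14.9% in WT. The share of Prosbeta2 was 19.8% and 20.2%, against 13.9%, 14.0% and 13.7% in WT.

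**Figure D2:**
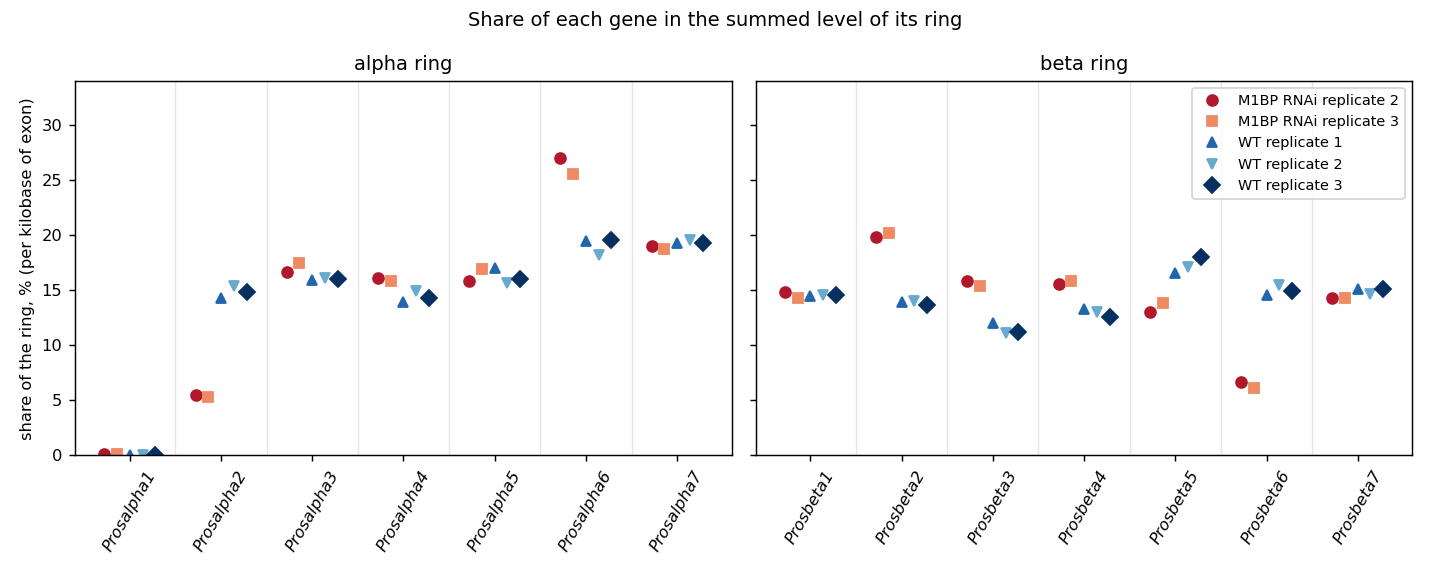
Share in percent of each alpha and beta gene in the summed normalised count per kilobase of exon of its ring, with 1 point per library and M1BP RNAi left of WT. Prosalpha2 and Prosbeta6 hold between 5.33% and 6.64% of their rings in M1BP RNAi and between 14.3% and 15.5% in WT, while Prosalpha6 and Prosbeta2 hold a larger share in M1BP RNAi.

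The Rpt ring had the narrowest range of changes of the 4 groups of subunits. All 6 ATPase genes were called higher in M1BP RNAi, beside 3.78% of all genes tested. Their log2 fold changes lay between 0.69 and 1.06, with an SD over the 6 genes of 0.13. Rpt1 had 7833 and 7587 in M1BP RNAi, against 3558, 3520 and 4050 in WT (log2 fold change 1.06, SE 0.106, DESeq2 adjusted p = 1.51e-21). Rpt5 had 7232 and 7455, against 3830, 3908 and 4211 in WT (log2 fold change 0.88, SE 0.0836, adjusted p = 5.43e-24). Rpt2 had 8664 and 8974, against 4552, 4350 and 4971 in WT (log2 fold change 0.93, SE 0.0967, adjusted p = 5.53e-20). In each of the 6 genes, including Rpt3, Rpt4 and Rpt6, both M1BP RNAi libraries lay above the highest WT library, beside 27.1% of all genes tested. Rpt6, with the smallest change, had 6019 and 6346, against 3566, 3859 and 4078 in WT, and lost its call without either M1BP RNAi library (adjusted p = 0.00147 without replicate 2 and 0.00111 without replicate 3). Within the ring, shares per kilobase of exon ran over 14.8% to 18.9% in M1BP RNAi libraries and 15.2% to 18.5% in WT libraries. The share of Rpt1 was 17.8% and 17.1% in M1BP RNAi, against 15.5%, 15.2% and 15.7% in WT, and that of Rpt6 was 14.8% and 15.4%, against 16.7%, 17.9% and 17.1% in WT. The groups did not overlap for these shares, nor for those of Rpt3 (lower in M1BP RNAi) and Rpt4 (higher in M1BP RNAi). The highest gene exceeded the lowest 1.23 times in M1BP RNAi, against 1.16 times in WT, and Rpt2 was the highest in both.

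Among the 12 Rpn genes, 7 were called higher, none was called lower and 5 were not called, with a median log2 fold change of 0.64 and a range of 0.30 to 0.97. The share of all genes tested called higher was 3.78%. In all 12 Rpn genes, both M1BP RNAi libraries lay above all WT libraries, beside 27.1% of all genes tested. Of the 8 lid genes, 5 were called higher (Rpn3, Rpn6, Rpn7, Rpn11 and Rpn12), and of the 4 others, 2 were (Rpn2 and Rpn10). Rpn11, the lid enzyme that cuts ubiquitin chains off the substrate, had 7648 and 7616 in M1BP RNAi, against 3764, 3687 and 4205 in WT (log2 fold change 0.97, SE 0.0981, DESeq2 adjusted p = 3.09e-21). Rpn3, a structural lid subunit, had 6568 and 6362, against 3560, 3508 and 3503 in WT, the smallest adjusted p of all members (log2 fold change 0.88, SE 0.0621, adjusted p = 1.03e-42). Rpn12, the lid subunit that joins last in yeast, had 5210 and 5314, against 2681, 2780 and 2975 in WT (log2 fold change 0.90, SE 0.0874, adjusted p = 4.92e-23). These 3 genes were shown because they had the smallest p of the Rpn genes. Their gaps between groups, several times wider than the spread within either, largely follow from that choice.

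Of the ubiquitin receptors, Rpn10 was called higher with 10360 and 10770 in M1BP RNAi, against 6166, 5775 and 6581 in WT (log2 fold change 0.77). Rpn13 had 4811 and 4648, against 3288, 3402 and 3528 in WT, and its log2 fold change, 0.47 with a DESeq2 adjusted p of 1.73e-08 (SE 0.0763), was under the fold minimum. Whether these 2 changes differ was not tested. The scaffold subunit Rpn2 was called higher with 12140 and 12810, against 7471, 7286 and 7823 in WT (log2 fold change 0.73, adjusted p = 1.43e-20). The other scaffold, Rpn1, had 8632 and 8235, against 6350, 6188 and 6522 in WT, and stayed under the fold minimum (log2 fold change 0.41, SE 0.0686, adjusted p = 7.37e-08).

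The remaining lid genes that were not called are Rpn5, Rpn8 and Rpn9. Rpn8, the partner of Rpn11 in the lid, had 4581 and 4547 in M1BP RNAi, against 3066, 3163 and 3445 in WT, with an adjusted p of 1.53e-06 by DESeq2 and a log2 fold change of 0.50 under the fold minimum. Rpn9 had 5491 and 5477, against 3677, 3884 and 4535 in WT (log2 fold change 0.44, SE 0.130, DESeq2 adjusted p = 0.00508). Rpn5 had 5533 and 5298, against 4117, 4072 and 5032 in WT (log2 fold change 0.30, SE 0.14, adjusted p = 0.106). All 3 had higher values in both M1BP RNAi libraries than in any WT library, beside 27.1% of all genes tested. Of the 9 main copies not called, 4 (Prosbeta1, Rpn1, Rpn8 and Rpn13) passed the adjusted p and missed only the fold minimum. The highest Rpn gene per kilobase, Rpn10 in both groups, exceeded the lowest 2.68 times in M1BP RNAi, against 2.26 times in WT.

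**Figure D3:**
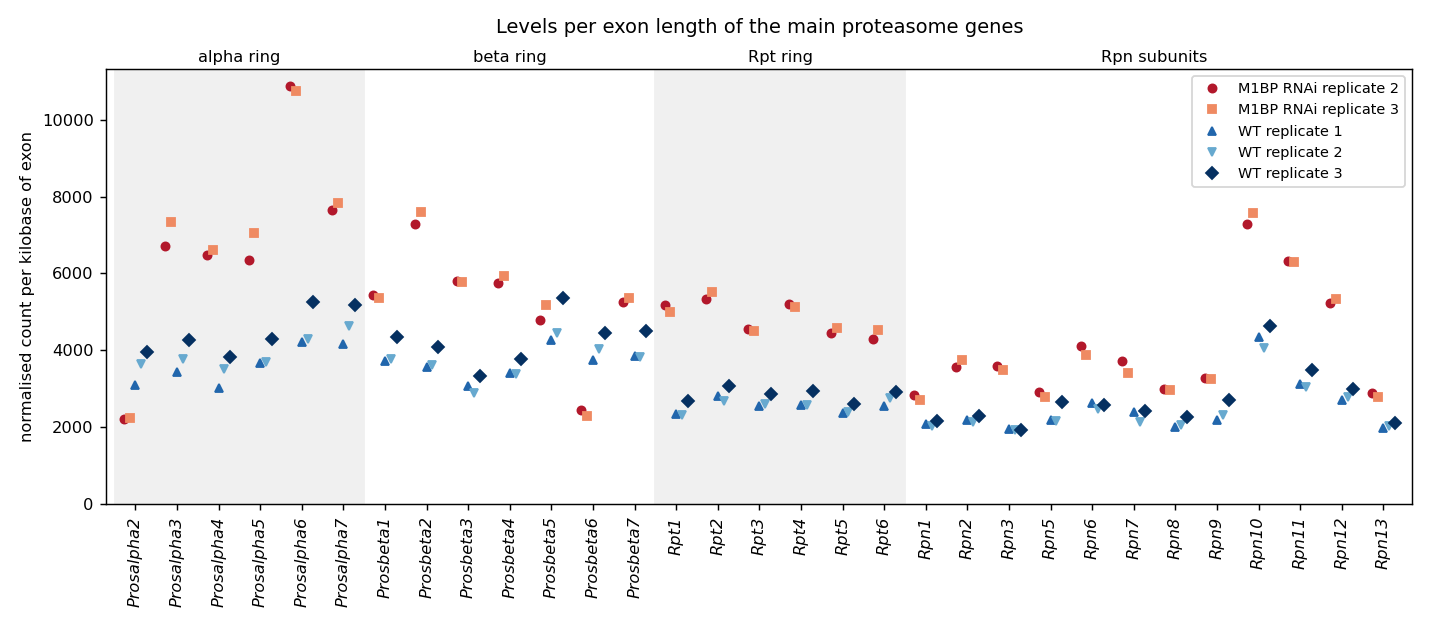
Normalised count per kilobase of exon of 31 main copies (Prosalpha1 left out), with 1 point per library and M1BP RNAi left of WT. The median over the 31 genes is 5170 and 5125 in M1BP RNAi and 2801, 2794 and 3059 in WT, and Prosalpha6 reaches a mean of 10810 in M1BP RNAi.

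The paralogues were low and came mainly from a single library. All 15 had their highest count in M1BP RNAi replicate 2. Their summed raw count was 1038 and 86 in M1BP RNAi replicates 2 and 3, against 35, 19 and 30 in WT replicates 1, 2 and 3. As a share of the counts of all 47 genes this was 0.366% (exact 95% interval 0.344% to 0.389%) and 0.0405% (0.0324% to 0.0501%) in M1BP RNAi, against 0.0315%, 0.0182% and 0.0229% in WT. These intervals cover counting error only. At least 10 reads were found for 14 paralogues in M1BP RNAi replicate 2 and for 2 in M1BP RNAi replicate 3, against 1 in each WT library. The groups did not overlap for 7 of the 15 paralogues (46.7%), beside 27.1% of all genes tested with every M1BP RNAi library above every WT library. Apart from Rpt6R, these paralogues had only 2 to 4 raw reads in M1BP RNAi replicate 3, against 0 to 2 in each WT library. Their separation therefore rested on a few reads.

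Rpt6R (FBgn0039788, arm 3R, 30582198 to 30583697), the paralogue of the ATPase gene Rpt6, was the only paralogue called, beside 3.78% of all genes tested called higher. It had 107 and 48 raw counts in M1BP RNAi, against 6, 4 and 5 in WT, so both M1BP RNAi libraries were above all WT libraries. Its normalised counts were 78.2 and 47.1, against 6.64, 4.76 and 5.32 in WT (log2 fold change 3.49, SE 0.716, DESeq2 adjusted p = 2.06e-05). The call was lost when M1BP RNAi replicate 3 or any WT library was left out (adjusted p between 0.00231 and 0.00481), with log2 fold changes of 3.38 to 3.82. Without M1BP RNAi replicate 2 it received no adjusted p. Rpt6R was 1.28% and 0.737% of the reads of the pair Rpt6 and Rpt6R in M1BP RNAi, against 0.186%, 0.123% and 0.130% in WT. Rpt3R had 63 and 16 raw counts in M1BP RNAi, against 17, 13 and 15 in WT, and its groups overlapped (log2 fold change 0.89, SE 0.785, adjusted p = 0.436). It was the only paralogue with at least 10 reads in each library.

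The alpha and beta paralogues had 0 to 4 reads in every library other than M1BP RNAi replicate 2. Prosbeta5R1, related to the chymotrypsin-like subunit, had 160 and 4 raw counts in M1BP RNAi, against 1, 0 and 1 in WT. Prosbeta4R2 had 151 and 1, against 2, 0 and 3 in WT. Prosalpha6T, a testis paralogue of Prosalpha6, had 119 and 2, against 2, 0 and 1 in WT. In each of these genes the second M1BP RNAi library was near the level of the WT libraries. Prosalpha4T2 had 93 and 2 raw counts in M1BP RNAi, against 1, 0 and 0 in WT. Prosbeta5R2 had 62 and 2, against no reads in any WT library. Prosbeta2R1 had 38 and 0, against 1, 0 and 0 in WT. The same single library was high in all 3. Prosbeta4R1 had 37 and 4, against 2, 0 and 1 in WT. Prosbeta2R2 had 22 and 2, against 0, 2 and 2 in WT, and Prosalpha3T had 15 and 0, against 1, 0 and 0 in WT. Prosalpha4T1 did not reach 10 reads in any library.

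Of the cap paralogues, Rpn12R had 84 and 3 raw counts in M1BP RNAi, against 1, 0 and 1 in WT. Rpn13R had 44 and 2, against 1, 0 and 0 in WT, and Rpt4R had 37 and 0, against no reads in WT. They showed the same pattern as the core paralogues, with reads in M1BP RNAi replicate 2 and few or none elsewhere. None of the paralogues other than Rpt6R passed an adjusted p of 0.001: the smallest was 0.00591 for Prosbeta5R1, and 3 of the 15 (Prosalpha3T, Prosalpha4T1 and Prosbeta2R2) received no adjusted p. Without M1BP RNAi replicate 3, a fit that rests on M1BP RNAi replicate 2 alone, 3 paralogues were called (Prosalpha6T, Prosbeta4R2 and Prosbeta5R1). Per kilobase of exon, main copies in M1BP RNAi replicate 2 exceeded their paralogues between 45.3 times (Prosbeta5 over Prosbeta5R1) and 1320 times (Prosalpha4 over Prosalpha4T1).

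**Figure D4:**
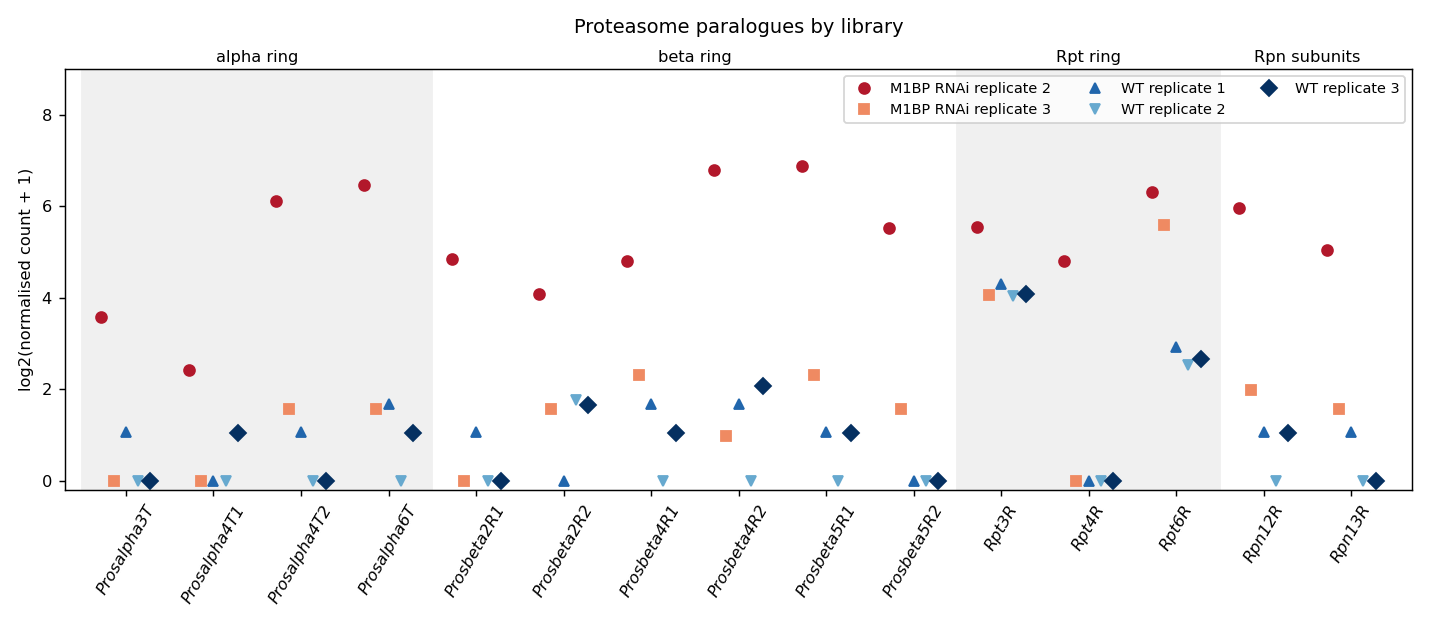
Log2 of the normalised count plus 1 of the 15 paralogues, with 1 point per library and M1BP RNAi left of WT. M1BP RNAi replicate 2 is the highest point for every gene, and Rpt6R is the gene for which M1BP RNAi replicate 3 also lies well above the WT libraries (78.2 and 47.1 normalised counts against 6.64, 4.76 and 5.32).

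Testis genes were high in the same library as the paralogues. Of 25 listed testis markers, 23 matched a gene in the counts and 22 of these were highest in M1BP RNAi replicate 2, the exception being bol, which was abundant in every library. Of the 19 that received an adjusted p, DESeq2 called 5 higher, beside 3.78% of all genes tested. The 22 markers without bol summed to 10560 and 458.5 normalised counts in M1BP RNAi, against 409.5, 263.1 and 378.9 in WT. The sperm tail protein gene Mst84Da had 726.9 and 6.87 in M1BP RNAi, against 2.21, 1.19 and 2.13 in WT. No marker was at 0 in M1BP RNAi replicate 2, 3 were at 0 in M1BP RNAi replicate 3 (can, sa and comr), and between 4 and 11 were at 0 in each WT library. In M1BP RNAi replicate 2, the library with the highest total count, comr (0.73), sa (2.19), aly (2.92) and can (9.50) were still near the floor. Leaving out Rpt3R and Rpt6R, the other 13 paralogues summed to 634.1 and 21.6, against 13.3, 2.38 and 10.6 in WT, so replicate 2 exceeded replicate 3 by 29.4 times for these 13 paralogues and by 23.0 times for the 22 markers. Over all 15 paralogues the ratio was 8.98, and over all 23 matched markers, with bol, it was 2.20. Leaving out Rpt3R, Rpt6R and bol was not planned, so the closeness of 29.4 and 23.0 depends on a choice made after the values were seen. The part of testis RNA in the paralogue values was not tested. The 32 main copies summed to 206300 and 208200 in M1BP RNAi, against 123100, 124600 and 139400 in WT. Their ratio of replicate 2 over replicate 3 was 0.991.

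Genes that assemble, regulate or serve the proteasome were read from a list of 22 names, of which 20 matched. Of these, 4 were called higher and none was called lower, beside 3.78% and 2.98% of all genes tested, and the median log2 fold change was 0.27. The 20 genes include CG30382, the low-count gene described above that is named as a copy of the core subunit gene Prosalpha1 (log2 fold change 1.74, SE 0.854, not called). Pomp, the chaperone that matures the core particle, had 6868 and 7236 in M1BP RNAi, against 2970, 2972 and 3469 in WT (log2 fold change 1.17, SE 0.117, DESeq2 adjusted p = 2.04e-21). Usp14, a deubiquitinase that docks on the cap, had 4851 and 4799, against 2392, 2345 and 2659 in WT (log2 fold change 0.97, SE 0.0992, adjusted p = 1.54e-20). Npl4, a cofactor of the segregase that extracts ubiquitinated proteins, had 4143 and 4293, against 2392, 2446 and 2791 in WT (log2 fold change 0.73). Its fellow cofactor p47 had 3798 and 3704, against 2070, 2264 and 2625 in WT (log2 fold change 0.69). In all 4 genes both M1BP RNAi libraries lay above the highest WT library, beside 27.1% of all genes tested. The 4 are shown because they were called higher, so this separation adds no support. Without M1BP RNAi replicate 2, Npl4 and p47 lost their calls (DESeq2 adjusted p = 0.00252 and 0.0296), as they did without M1BP RNAi replicate 3 (0.00163 and 0.00797). The call of p47 was also lost without WT replicate 1 (0.00104) and without WT replicate 2 (0.00409). The transcription factor cnc, the fly relative of the Nrf factors that control proteasome genes in mammals, had 3670 and 4256, against 4783, 4450 and 5040 in WT, and did not pass the test (DESeq2 adjusted p = 0.0947, log2 fold change -0.26, SE 0.121).

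The members share little position in the genome. Main copies lie on 2R (10), 3R (9), 3L (5), 2L (4) and X (4), and 5 of the 15 paralogues lie on the arm of their main copy. A single exon makes up 6 of the 15 paralogues, against 4 of the 32 main copies. An exon of 13 main copies and of the paralogue Rpt3R overlaps an exon of a gene on the opposite strand, by 1 to 182 bases, and Prosbeta4R2 overlaps one on its own strand by 69 bases. The setting for strand in the counting is not given in the sources used here, so reads from such overlaps cannot be assigned. For the main copies other than Prosbeta3 and Prosalpha1 the overlapping gene was the less abundant of the pair. For Rpt3R, which averaged 22.4 normalised counts over all libraries, the overlapping gene CG8412 averaged 1725.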

How the data were processed

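Poly(A) RNA libraries were made from 100 ng of total RNA with 13 cycles of PCR, per the labels. The authors deposited whole-number counts of uniquely aligned reads (dm6) over the exons of each gene, and the submitters' processing notes name featureCounts in Subread 2.0.3. The aligner and the annotation release are not given in the sources used here. A second deposited table holds the authors' own comparison, with mean normalised counts as a signal, log2 fold changes with standard errors, and p-values with their adjustment. Only its gene symbols were used. Columns without a sample numbered 0.

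Counts of the 17494 genes in the 5 libraries were tested with the Wald test of DESeq2 1.42.0 (R 4.3.3) at default settings with no covariate, and calls used the thresholds of the study. Of the 47 members, 44 received an adjusted p (32 main copies and 12 paralogues). The supplied annotation gave all 47 the same start and end as the counts table. Samples were grouped by title. The members and lists were chosen with earlier results of these data known. Values in every library are given for M1BP, the 3 main copies per subcomplex with the smallest p, main copies called lower or not called, paralogues with at least 10 counts in a library and called genes of the wider list, and other genes were chosen after their values were seen. Alternatives were edgeR 4.0.16, TMM size factors, a low-count filter (10 counts or more in 2 or more libraries), a lncRNA:roX1 covariate, mitochondrial genes left out, Cook's distance or independent filtering off, an adjusted p of at most 0.05, no fold minimum, a replicate block and each library left out. Leaving out Prosalpha1 was added after seeing the data, as was leaving out Rpt3R, Rpt6R and bol from the sums of paralogues and testis markers.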

Additional observations from a re-analysis of the deposited data

How the results depend on the processing

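The direction of all 21 main copies called higher was kept in every alternative run. This was largely fixed in advance, because both M1BP RNAi libraries lay above all WT libraries for each of these genes. With edgeR's quasi-likelihood test, calls fell to 8 for all genes (762 with DESeq2) and to 0 for main copies, paralogues, the wider proteasome list and the alpha, beta, Rpt and Rpn genes alone, while an unadjusted edgeR p under 0.05 was found for 3062 of 9833 genes tested, 31 of 32 main copies, 1 of 2 tested paralogues and 10 of 20 tested genes of the wider list. At an edgeR adjusted p of at most 0.05, all 21 were called, beside 4.73% of the genes edgeR tested. With the lncRNA:roX1 covariate, calls were 302 for all genes, 0 for paralogues, 2 for the wider list and 3 for the alpha ring, and 15 of the 21 main copies were still called. With the replicate block, calls were 315 for all genes, 14 for main copies, 0 for paralogues, 2 for the wider list, 3 for the alpha ring and 2 for the beta ring. The groups share only replicate numbers 2 and 3, and the labels do not say that a number marks a shared batch. Deviations of the same-numbered libraries from their group means correlated with r = 0.15 for number 2 and -0.04 for number 3 across 8265 genes. The 2 M1BP RNAi libraries deviate from their mean by equal and opposite amounts, so these values cannot decide whether libraries were paired. With no label for pairing, the libraries were not taken as paired in the main fit. At an adjusted p of at most 0.05, 1799 genes and 5 paralogues were called, and with no fold minimum 7 genes of the wider list were. M1BP had a log2 fold change of -0.60 with edgeR (adjusted p = 0.0243), -0.60 with the covariate (0.193) and -0.60 with the block (0.443). Leaving out 1 library at a time gave 319 to 937 calls for all genes (319 without M1BP RNAi replicate 2 and 491 without WT replicate 2), 17 to 23 for main copies, 0 to 3 for paralogues, 2 to 6 for the wider list, 3 to 6 for the alpha ring (3 without M1BP RNAi replicate 3) and a log2 fold change of M1BP of -0.68 to -0.52, with its call lost in all 5 of these fits. Where a single M1BP RNAi library remained, it was assumed to vary like the WT libraries. The median of the main copies stayed between 0.72 and 0.82. Leaving out 1 library turned the sign of 2 genes that were close to no change, maf-S (log2 fold change -0.044 to 0.067) and Pngl (-0.062 to 0.025). The cause of these differences was not tested. Most paralogues had fewer than 5 reads in all libraries but M1BP RNAi replicate 2, so a difference from WT in M1BP RNAi replicate 3 was not detectable for most of them at this depth.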

Other observations

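Several main copies lie directly upstream of a gene that fell. Neighbours were tested genes within 500 bases, overlapping genes included, and their side was set by their lowest coordinate alone. Among the 12 main copies with a neighbour so counted as downstream on the same strand, that gene was called lower in M1BP RNAi for 4 (33.3%). For Rpt1, 1 of the 12, that gene is CG17985, whose span contains the whole of Rpt1 and so is not truly downstream. By the same rule, 2702 of all genes tested had such a neighbour, and it was called lower for 100 of them (3.70%). For the genes called higher this was 12 of 119 (10.1%). Past the 3′ end of Rpn12 by 101 bases lies UQCR-C2, a core subunit of respiratory complex III, which had 9459 and 8315 normalised counts in M1BP RNAi, against 92140, 80610 and 104700 in WT (log2 fold change -3.38). Past Prosalpha6 by 110 bases lies CG4908, with 684.5 and 606.8 in M1BP RNAi, against 6197, 5640 and 7293 in WT (log2 fold change -3.30). CG17996, 140 bases past Prosbeta4, had 279.8 and 283.7 in M1BP RNAi, against 1312, 1303 and 1513 in WT (log2 fold change -2.29). For these 3 pairs the proteasome gene was called higher and its neighbour lower. CG4098, 52 bases past Prosbeta6, had 71.6 and 70.7 in M1BP RNAi, against 191.5, 196.4 and 184.1 in WT (log2 fold change -1.42), and here both genes of the pair were called lower. The groups did not overlap for any of the 4 neighbours, beside 21.9% of all genes tested with every M1BP RNAi library below every WT library. The 4 were picked because they were called lower, so this separation adds no support. These pairs were chosen after their values were seen, and the share among main copies was not tested.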
